A study of Mus musculus with 12 samples.

Results

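The genes followed here, 8 in number, are induced response genes and signalling genes of inflammation, measured across 3 Control and 3 DSS libraries: Nos2, Ptgs2, Vcam1, Tnfrsf9, Tnfaip2, Socs3, Pik3cd and Egr1. They were chosen by name from the 912 features listed for both groups, with earlier results of these data known. RNA came from mouse colon, and the sources used here do not state strain, sex or age. Control mice were given water. DSS mice received 2.5% dextran sulfate sodium, a polysaccharide that damages the colon lining, for 5 days and then water for 5 days, over 3 cycles. BXD_L and BXD_H mice, which had the same course plus Banxia Xiexin Decoction at 7.60 or 15.2 g/kg per day, were not analysed for these genes, which are not listed for them. The labels do not tie each library to its own mouse, so a p-value here reflects variation among libraries that may be technical.

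NF-kB is a family of transcription factors held in the cytoplasm by inhibitor proteins. Tumour necrosis factor, interleukin 1 and bacterial products free it to enter the nucleus, where it drives genes for cytokines, adhesion molecules and inducible enzymes. STAT proteins are phosphorylated by JAK kinases at cytokine receptors and carry signals of the interleukin 6 and interferon families to the nucleus. In colitis both pathways act in epithelium, endothelium, stroma and infiltrating leukocytes, so bulk tissue does not show which cells made a transcript, and more cells of a type cannot be told apart from more RNA per cell.

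Values are FPKM, which divides fragments by gene length and by library size, so levels can be compared between genes. The spacing of low values of short genes gave library totals of 14.4 to 19.2 times 1000000 fragments. Changes are differences of group means of log2(FPKM + 1), DSS minus Control, with 2-sided limma tests adjusted by Benjamini-Hochberg. The listed features are a selection that separates the groups: 99.1% of the 576 that passed the low-value filter were past the threshold of 0.05, 456 higher and 115 lower, and in 95.2% of the 912 the groups did not overlap (77.4% with every DSS library higher). Being listed thus nearly settles the call, and adjusted p-values for the 8 genes are not independent evidence that they changed. With 3 libraries against 3, an exact permutation test of a single gene cannot go below p = 0.1. Titles and descriptions conflict for a pair of libraries: DSS treatment is described for Control replicate 3, and the lower decoction dose for DSS replicate 3. Groups followed the titles. With both of these libraries left out, the log2 change was 2.03 for Nos2, 2.25 for Ptgs2, 1.56 for Vcam1, 1.02 for Tnfaip2, 1.40 for Socs3, 0.80 for Pik3cd and 2.75 for Egr1, all 7 past the threshold, and 0.59 for Tnfrsf9, which was not tested. Without these 2 libraries 425 of the 576 tested features were past the threshold as higher and 77 as lower. Of 15 colonocyte markers 4 were listed, and their summed FPKM was 853 to 1234 in Control and 133 to 516 in DSS, with none of the 4 at 0.

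Of the 8 genes 7 were tested and all 7 rose, against 79.2% of all tested features that rose. Their median log2 change was 1.50, against 0.96 over all tested features and 1.05 over the features that rose. Because the 8 genes were chosen with earlier results known, these comparisons and the ranks that follow only describe the chosen genes. Egr1 had the 64th largest of 456 rises and Nos2 the 70th, Vcam1 the 100th, Ptgs2 the 103rd, Socs3 the 162nd, Tnfaip2 the 296th and Pik3cd the 312th. Tnfrsf9 stood below the low-value filter. In 7 of the 8 genes every DSS library was above every Control library, as in 77.4% of the 912 listed features, and Ptgs2 was the exception. Ranked by mean level, Control ran Egr1, Vcam1, Nos2, Socs3, Pik3cd, Tnfaip2, Ptgs2 and Tnfrsf9, and the values of each neighbouring pair overlapped except those of Ptgs2 and Tnfrsf9. In DSS the order was Egr1, Nos2, Vcam1, Socs3, Ptgs2, Tnfaip2, Pik3cd and Tnfrsf9, and again only Tnfrsf9 was separated from its neighbour.

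**Figure D1:**
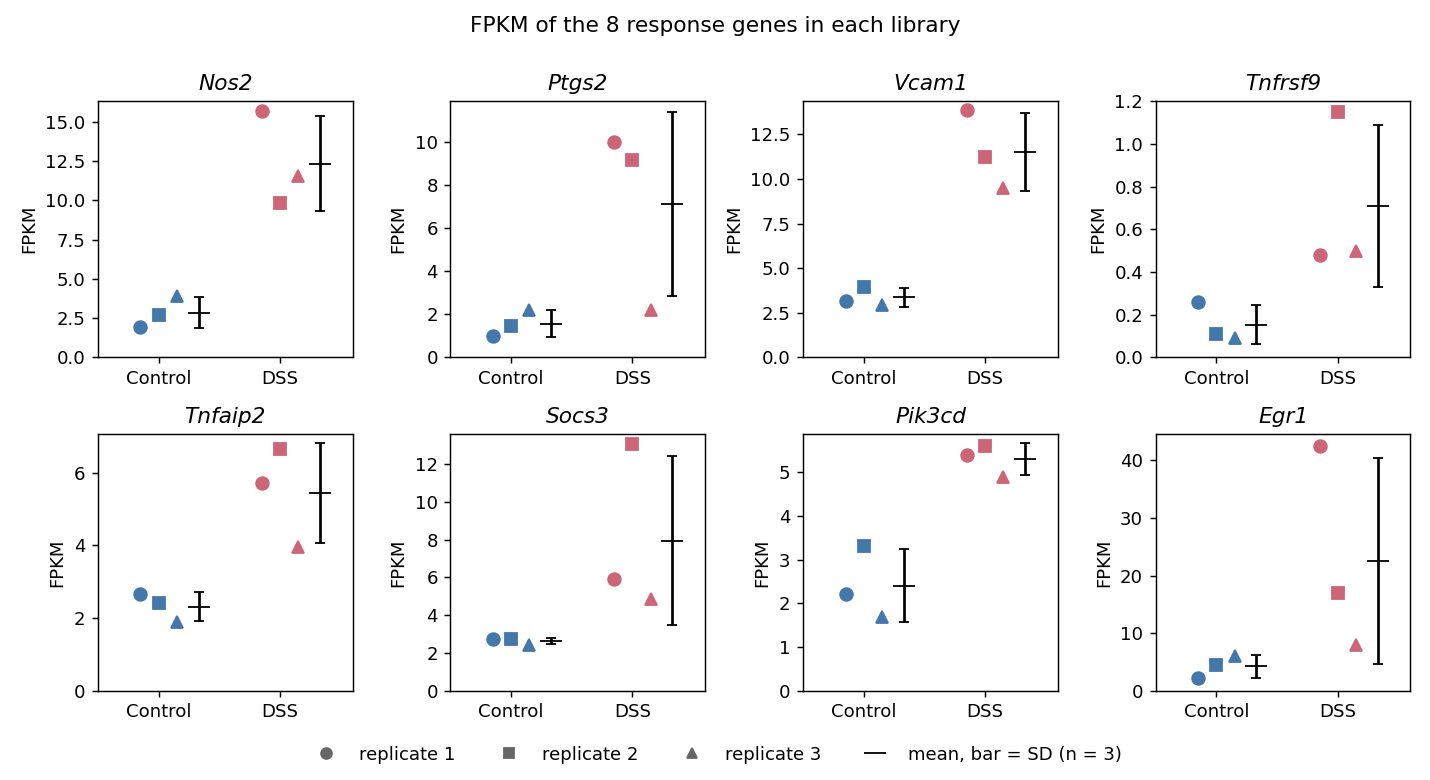
FPKM (vertical axes, linear, from 0) of each of the 8 genes in the 3 Control (blue) and 3 DSS (red) libraries, with the marker shape giving the replicate and the black bar the mean ± SD. DSS libraries lie above Control libraries except for Ptgs2, where DSS replicate 3 (2.19) sits beside Control replicate 3 (2.22).

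The inducible enzymes are described first. Nos2 encodes the inducible nitric oxide synthase, which makes nitric oxide from arginine in activated macrophages and in inflamed epithelium. Its FPKM was 1.93, 2.69 and 3.93 in Control replicates 1 to 3 and 15.67, 9.81 and 11.52 in DSS replicates 1 to 3. Every DSS library was at least 2.50 times the highest Control library. The means were 2.85 ± 1.01 and 12.3 ± 3.01 FPKM (SD, n = 3 each), a ratio of 4.33, and the log2 change was 1.80 (SE 0.28, limma adjusted p = 0.00244). Nos2 (ENSMUSG00000020826) lies on chromosome 11 from 78920787 to 78960254 (mm10).

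Ptgs2, known as COX-2, is the inducible cyclooxygenase that starts prostaglandin synthesis. Its FPKM was 1.00, 1.47 and 2.22 in Control and 10.01, 9.19 and 2.19 in DSS. DSS replicates 1 and 2 were high, and DSS replicate 3 was at the level of the highest Control library, about 192 fragments against 165. The log2 change was 1.50 (SE 0.45, limma adjusted p = 0.0112), from a mean of 1.56 ± 0.615 to 7.13 ± 4.30 FPKM (n = 3 each). Without DSS replicate 2 the change of Ptgs2 was 1.24 and did not pass (limma adjusted p = 0.0533). Without the 2 libraries of conflicting description, which are the overlapping pair, it was 2.25 (limma adjusted p = 0.00959). Ptgs2 (ENSMUSG00000032487) lies on chromosome 1 from 150100031 to 150108227.

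Among 37 genes of nitric oxide and prostanoid synthesis 6 were listed and 4 tested, and, against 79.2% of all tested features, all 4 rose. Besides Nos2 and Ptgs2 these were Arg2, a mitochondrial arginase that competes for arginine, and Ptges, the inducible prostaglandin E synthase that acts after Ptgs2. Arg2 rose from 3.00 ± 0.803 to 8.35 ± 2.20 FPKM (log2 change 1.22, limma adjusted p = 0.00480), and its highest library was DSS replicate 3, with 10.16. Ptges stood at 1.94, 2.83 and 2.27 FPKM in Control and 4.21, 6.93 and 4.63 in DSS (log2 change 0.89, limma adjusted p = 0.00695). Ptges therefore did not overlap between the groups, and DSS replicate 3, the low library for Ptgs2, held the second highest Ptges level. The other listed members were below the filter: Arg1, at 0.13 to 0.37 FPKM in Control and 0.49 to 4.40 in DSS, and Alox5, the leukotriene-forming lipoxygenase, which was lower in DSS at 0.22 to 0.51 FPKM against 0.77 to 0.99.

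Vcam1 and Tnfrsf9 encode surface receptors. Vcam1 is the endothelial and stromal ligand of the integrin VLA-4, through which leukocytes attach and leave the blood. Its FPKM was 3.18, 3.96 and 2.92 in Control and 13.85, 11.22 and 9.50 in DSS, with no overlap and 2.40 times between the nearest libraries. The mean rose from 3.35 ± 0.541 to 11.5 ± 2.19 FPKM (n = 3 each). The log2 change of Vcam1 was 1.52 (SE 0.24; limma adjusted p = 0.00244). Vcam1 (ENSMUSG00000027962) lies on chromosome 3 from 116109949 to 116129688, and 61 of its 8870 exon bases are shared with an antisense gene, Gm43109. The sources used here do not say whether counting used strand.

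Of 24 genes of leukocyte adhesion to endothelium 4 were listed. Itgal, the alpha chain of the leukocyte integrin LFA-1, rose from 2.48 ± 0.466 to 5.37 ± 0.316 FPKM (log2 change 0.88, limma adjusted p = 0.00496). The selectins were below the filter. Selp, the gene of P-selectin, which activated endothelium and platelets bring to their surface, was at 0.16 to 0.43 FPKM in Control and 0.80 to 5.23 in DSS, and Sele, E-selectin, was at 0, 0.04 and 0 in Control and 0.16, 0.68 and 0.14 in DSS. The highest library was DSS replicate 2 for both selectins and DSS replicate 1 for Vcam1. Cldn5, the listed one of 12 endothelial markers, was at 1.67 to 2.84 FPKM in Control and 3.69 to 7.24 in DSS, also highest in DSS replicate 1. The part of endothelial content in the Vcam1 result was not tested.

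Tnfrsf9, also called 4-1BB or CD137, is a costimulatory receptor that activated T cells put on their surface. It had the lowest level of the 8, at 0.26, 0.11 and 0.09 FPKM in Control and 0.48, 1.15 and 0.50 in DSS. These values stand for about 10, 5 and 4 fragments in Control and 20, 52 and 26 in DSS. The groups did not overlap, and the mean ratio was 4.63 (0.153 ± 0.0929 against 0.710 ± 0.381 FPKM). The difference was 0.55 on the log2(FPKM + 1) scale, which compresses values this low, and 1.64 with a pseudocount of 0.1. When all 912 features were tested with no filter, Tnfrsf9 passed (limma adjusted p = 0.0125). In that setting 708 of the 912 features passed as higher and 169 as lower, so the call does not set Tnfrsf9 apart. Tnfrsf9 (ENSMUSG00000028965) lies on chromosome 4 from 150914562 to 150946102.

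Promoter windows of RefSeq (GRCm38.p6), 250 bases before to 50 after a transcript start, were matched for 5 of the 8 genes, in 8 windows: 1 each for Ptgs2, Socs3 and Tnfaip2, 2 for Tnfrsf9 and 3 for Pik3cd. No window of Nos2, Vcam1 or Egr1 was among those searched. The motif counts over the 8 windows, including that of the serum response element, therefore say nothing about these genes. The second Tnfrsf9 window is shown because it was the one member window with matches for the NF-kB, STAT and AP-1 motifs together. The motifs, in capitals, stand before the start at 150927999, and the overlapping NF-kB matches form 1 run. This start is internal to the annotated gene, and the NF-kB and AP-1 stretches overlap an annotated Tnfrsf9 exon, while the STAT stretch overlaps none.
Tnfrsf9 STAT, chr4:150927843-150927891, plus strand: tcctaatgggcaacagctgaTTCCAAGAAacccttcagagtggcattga
Tnfrsf9 NF-kB, chr4:150927947-150927975, plus strand: agagcagctGGGGATTTCCCaggaggccc
Tnfrsf9 AP-1, chr4:150927975-150927998, plus strand: ctgctcagtTGAGTCAcaggtcct
Both strands were searched. The NF-kB consensus was found in 3 of the 8 windows and in 8.46% of all 32851 windows of that length, the STAT motif TTCNNNGAA in 2 of 8 and 8.30%, and the AP-1 motif (TGAGTCA or TGACTCA) in 1 of 8 and 5.20%. The longer STAT motif, with 4 free bases between TTC and GAA, the CRE TGACGTCA and the serum response element matched none of the 8 windows, against 6.95%, 1.79% and 1.63% of all windows. A match describes letters in the window and is not a measured binding site.

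Of 43 TNF receptor and ligand genes 8 were listed, 5 were tested and all 5 rose, against 79.2% of all tested features. Of the tested genes only Ltb reached 1 FPKM in every Control library. The others passed the low-value filter only with libraries of other groups, which favoured a rise. Tnfrsf8 (CD30), another costimulatory receptor of activated lymphocytes, was at 2.13, 0.97 and 1.96 FPKM in Control and 7.18, 7.79 and 7.63 in DSS (log2 change 1.70, limma adjusted p = 0.00169). Its 3 DSS libraries were close together, whereas those of Tnfrsf9 spread 2.40-fold. Tnfrsf11b (osteoprotegerin, the decoy receptor for RANKL) rose by a log2 change of 1.34, Tnfrsf23 by 1.17, Tnf by 1.10 and Ltb (lymphotoxin beta) by 0.99. The summed FPKM of the 8 listed of 18 T and NK cell markers was 11.0 to 17.4 in Control and 31.1 to 42.7 in DSS, none of them at 0. It was highest in DSS replicate 1, while Tnfrsf9 was highest in DSS replicate 2. The part of T cell content in the Tnfrsf9 difference was not tested.

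**Figure D2:**
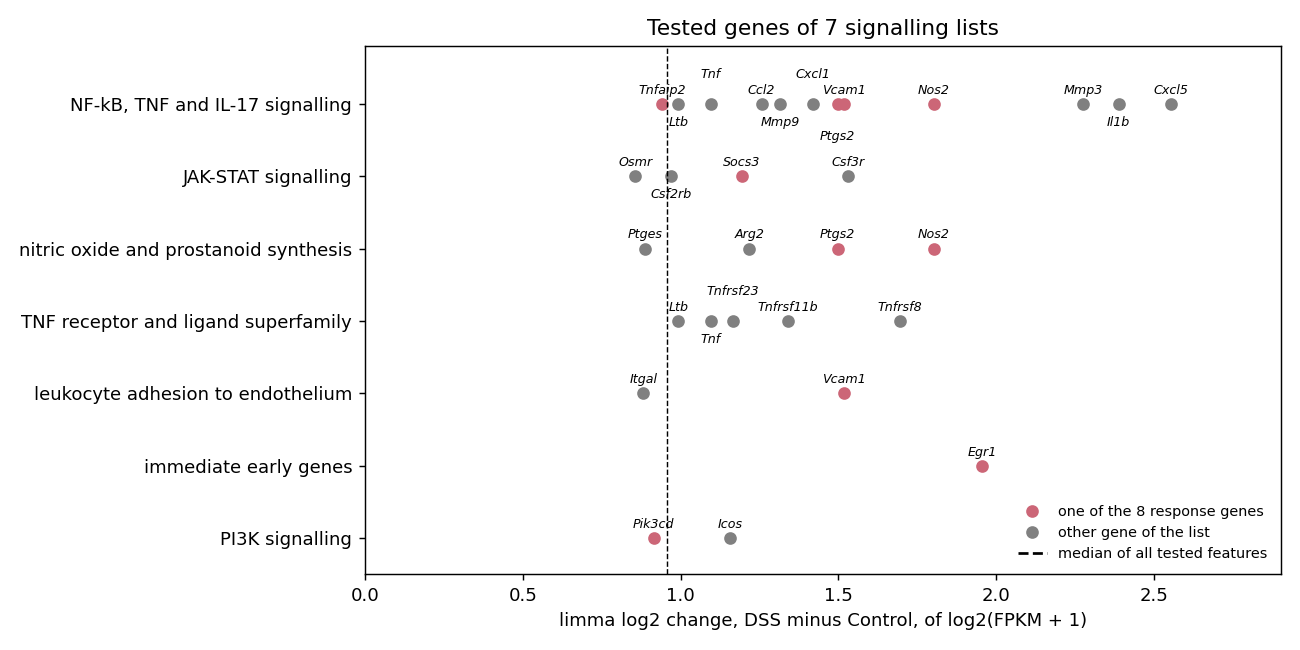
Limma log2 change (horizontal axis, DSS minus Control) of every tested gene of 7 signalling lists, with the response genes in red, other genes of a list in grey and the median of all tested features (0.96) as a dashed line. Every tested gene of these lists was higher in DSS, and Cxcl5, Il1b and Mmp3 lay above all of the response genes.

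Tnfaip2 and Socs3 are induced genes whose products act inside the cell. Tnfaip2 was named as a TNF-induced transcript of endothelial cells, and its protein takes part in forming membrane nanotubes. Its FPKM was 2.65, 2.40 and 1.88 in Control and 5.70, 6.66 and 3.94 in DSS, 1.49 times between the nearest libraries. The mean rose from 2.31 ± 0.393 to 5.43 ± 1.38 FPKM (n = 3 each). The log2 change of Tnfaip2 was 0.94 (SE 0.23; limma adjusted p = 0.00571), close to the median of all tested features. Tnfaip2 (ENSMUSG00000021281) lies on chromosome 12 from 111442469 to 111455018. Of its 4984 exon bases 314 are shared with the antisense gene Gm40578, so a part of its fragments cannot be assigned without strand. Its promoter window held an NF-kB match on the reverse strand, from 24 to 15 bases before the RefSeq start at 111442661, shown in capitals. GENCODE starts the gene further upstream, and the stretch overlaps an annotated Tnfaip2 exon.
Tnfaip2 NF-kB, chr12:111442628-111442655, plus strand: actattttaGGAGGGCCCCtccagggtc

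Socs3 is a STAT3 target whose protein binds JAK kinases and the interleukin 6 receptor chain gp130 and shuts the signal off. Its FPKM was 2.72, 2.72 and 2.43 in Control, the narrowest Control spread of the 8 genes, and 5.90, 13.06 and 4.86 in DSS. DSS replicate 2 stood well above the other DSS libraries, and the lowest DSS library was 1.79 times the highest Control library. The log2 change was 1.19 (SE 0.33, limma adjusted p = 0.0079), from 2.62 ± 0.167 to 7.94 ± 4.46 FPKM (n = 3 each). Without DSS replicate 2 the change was 0.81 and still passed (limma adjusted p = 0.00846). Socs3 (ENSMUSG00000053113) lies on chromosome 11 from 117966079 to 117970047, and its window held 1 STAT match, from 154 to 146 bases before the start at 117969366. That start is internal to the annotated gene, and the stretch overlaps no annotated exon.
Socs3 STAT, chr11:117969492-117969540, minus strand: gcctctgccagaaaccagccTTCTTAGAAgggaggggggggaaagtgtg

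In the JAK-STAT list 6 of 48 genes were listed and 4 tested, and all 4 rose, against 79.2% of all tested features. Osmr, the receptor chain for oncostatin M, an interleukin 6 family cytokine that signals through STAT3, was at 1.51, 1.50 and 1.31 FPKM in Control and 3.19, 5.59 and 2.12 in DSS (log2 change 0.86, limma adjusted p = 0.0133). Its ligand gene Osm was below the filter at 0.11 to 0.14 FPKM in Control and 0.43, 1.43 and 0.28 in DSS. Osm, Osmr and Socs3 shared the same order of DSS libraries, with replicate 2 highest and replicate 3 lowest. Csf3r, the receptor for the neutrophil growth factor G-CSF, rose by a log2 change of 1.53, and Csf2rb, the shared beta chain of the GM-CSF and interleukin 5 receptors, by 0.97. All 6 listed JAK-STAT genes were highest in DSS replicate 2. The summed FPKM of the 6 listed of 16 neutrophil markers was 1.54 to 1.77 in Control and 13.9, 50.5 and 7.56 in DSS replicates 1 to 3, the same order as for Socs3. The sums of the 9 listed of 13 fibroblast markers had that order too, at 520, 989.8 and 502 FPKM in DSS and 173 to 209.5 in Control. Of these markers Col1a1, Col1a2 and Col3a1 were lowest in DSS replicate 1 instead. Among all listed features, 436 of the 706 with every DSS library above Control were highest in DSS replicate 2. Of the neutrophil markers Cxcr2 was at 0 in 2 Control libraries. The part of neutrophil or fibroblast content in the Socs3 result was not tested.

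Pik3cd encodes p110 delta, the catalytic subunit of phosphoinositide 3-kinase that predominates in leukocytes. Its FPKM was 2.22, 3.31 and 1.68 in Control and 5.40, 5.61 and 4.89 in DSS. The DSS libraries lay within 1.15-fold of each other, the closest of the 8 genes, while the Control libraries spread 1.97-fold. The mean rose from 2.40 ± 0.830 to 5.30 ± 0.370 FPKM (n = 3 each). The log2 change of Pik3cd was 0.91 (SE 0.23; limma adjusted p = 0.00597). Of 31 genes of the PI3K list 3 were listed. Icos, a T cell costimulatory receptor that recruits this kinase, rose from 0.690 ± 0.411 to 2.72 ± 0.425 FPKM (log2 change 1.16, limma adjusted p = 0.00343). Icos was below 1 FPKM in Control replicates 1 and 3 and passed the filter only with libraries of other groups, which favoured a rise. Pik3r6, a regulatory subunit of the gamma kinase, was below the filter at 0.32 to 0.42 and 0.71 to 1.25 FPKM. The summed FPKM of the 5 listed of 18 macrophage and monocyte markers was 16.1 to 21.8 in Control and 39.6 to 48.2 in DSS, none of them at 0. The part of leukocyte content in the Pik3cd result was not tested. Pik3cd (ENSMUSG00000039936) lies on chromosome 4 from 149649168 to 149702571, and 1 of its 3 windows held an NF-kB match, from 86 to 77 bases before the start at 149676089. That start is internal to the annotated gene, and the stretch overlaps no annotated exon.
Pik3cd NF-kB, chr4:149676146-149676195, minus strand: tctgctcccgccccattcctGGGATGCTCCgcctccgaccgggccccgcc

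Egr1 encodes a zinc finger transcription factor of the immediate early class, which growth factors and injury induce rapidly without new protein synthesis. Its FPKM was 2.19, 4.39 and 6.01 in Control and 42.56, 16.95 and 7.99 in DSS. The DSS libraries spread 5.33-fold, the widest of the 8 genes, and DSS replicate 3 was 1.33 times Control replicate 3. The log2 change was 1.96 (SE 0.55, limma adjusted p = 0.00867), from 4.20 ± 1.92 to 22.5 ± 17.9 FPKM (n = 3 each). It was 1.36 without DSS replicate 1 and 2.75 when Control replicate 3 and DSS replicate 3 were both left out, past the threshold in both (limma adjusted p = 0.0199 and 0.0169). Of 34 immediate early genes 3 were listed, and the other two were below the filter. Egr2 was at 0.22, 0.32 and 0.15 FPKM in Control and 2.20, 0.65 and 0.43 in DSS, and Arc at 0.18, 0.12 and 0.52 in Control and 1.61, 0.65 and 0.48 in DSS. All 3 genes had the same order of DSS libraries, with replicate 1 highest and replicate 3 lowest, and Arc overlapped between the groups.

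**Figure D3:**
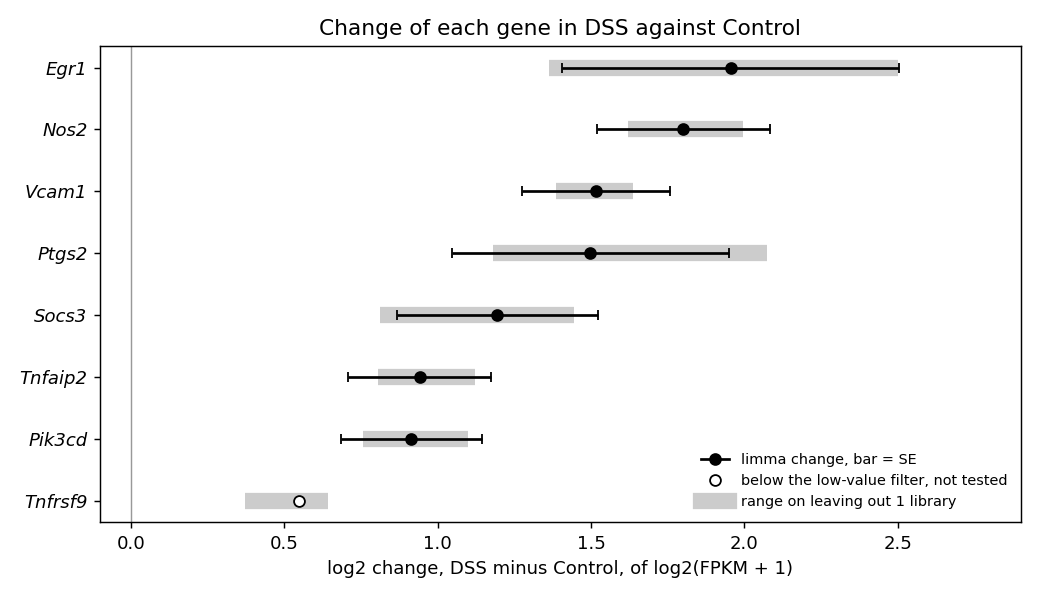
Log2 change (horizontal axis, DSS minus Control) of the 8 genes, with the limma SE as the black bar and the range on leaving out 1 library at a time as the grey bar; the open circle is Tnfrsf9, which was not tested. All ranges stay above 0, and those of Egr1 (1.36 to 2.50) and Ptgs2 (1.18 to 2.07) are the widest.

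In the NF-kB, TNF and IL-17 list 14 of 50 genes were listed and 12 tested, and all 12 rose, with a median log2 change of 1.46. Over all tested features 79.2% rose, and the median log2 change was 0.96. The 4 smallest adjusted p-values belonged to Cxcl1, a neutrophil-attracting chemokine (log2 change 1.42, limma adjusted p = 0.00133), Nos2, Vcam1 and Mmp3, a stromal matrix protease (log2 change 2.28, limma adjusted p = 0.00328). The other tested genes were Ptgs2, Tnfaip2, Tnf, Ltb, Cxcl5, Ccl2, Il1b and Mmp9. Cxcl1, Cxcl5, Ccl2, Il1b and Mmp9 were below 1 FPKM in every Control library and above 1 in every DSS library. They passed the low-value filter through DSS, so their rise was built in. The same holds for Csf3r and Tnfrsf23 of the other lists. Mmp3 and Tnf, and Icos, Tnfrsf8 and Tnfrsf11b of the other lists, reached 1 FPKM in only part of the Control libraries. They too passed the filter only with libraries of other groups, which favoured a rise. Cxcl2, below the filter, was at 0, 0.09 and 0.06 FPKM in Control and 1.35, 14.07 and 0.25 in DSS.

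The 8 genes divided by the DSS library in which they were highest. Nos2, Ptgs2, Vcam1 and Egr1 were highest in DSS replicate 1, and Tnfrsf9, Tnfaip2, Socs3 and Pik3cd in DSS replicate 2. In DSS replicate 3, 6 of the 8 had their lowest DSS value. Of the 706 listed features whose DSS libraries all lay above Control, 211 were highest in DSS replicate 1, 436 in replicate 2 and 59 in replicate 3, and 423 were lowest in replicate 3. Nos2 was the one gene of the 8 with its lowest DSS value in replicate 2, the library in which the summed colonocyte markers were also lowest (133 against 394 and 516) and the summed neutrophil and fibroblast markers highest (50.5 and 989.8 FPKM). The part of these markers in the order of the libraries was not tested.

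**Figure D4:**
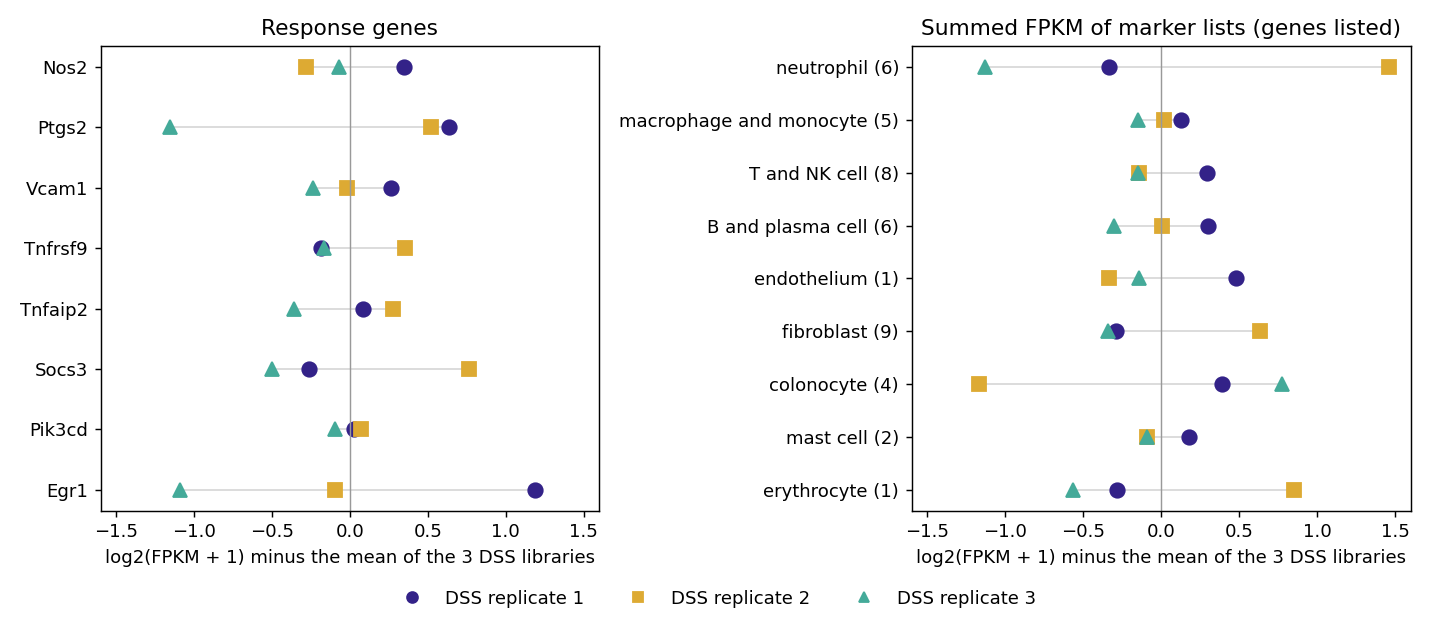
Position of each DSS library (purple circle replicate 1, yellow square 2, green triangle 3) as log2(FPKM + 1) minus the mean of the 3 DSS libraries, for the 8 genes (left) and for the summed FPKM of marker lists, with the number of listed genes in brackets (right). Nos2, Ptgs2, Vcam1 and Egr1 are highest in replicate 1, as are the summed T, B and macrophage markers (the last through Cd68, with 3 of the 5 genes highest in replicate 2), and Socs3, Tnfrsf9, Tnfaip2 and Pik3cd in replicate 2, as are the neutrophil and fibroblast markers.

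Similarity of pattern was measured as Pearson's r between deviations of log2(FPKM + 1) from the group means over the 6 libraries, and the feature with the highest r among those tested was taken. It was Pappa for Socs3 (r = 0.999), Igf1 for Tnfrsf9 (0.994), Tlr8 for Vcam1 (0.991), Crlf2 for Pik3cd (0.989), Slc11a1 for Ptgs2 (0.986), Cfap126 for Nos2 (0.974), Rab3il1 for Tnfaip2 (0.974) and Aoah for Egr1 (0.973). The 6 deviations hold 4 free values and came from the same libraries and sequencing depth, and at least 575 features were searched for each gene, so high r values are a description of these libraries.

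When each library was centred on the median of the listed features, every log2 change fell by 0.65, since most listed features are higher in DSS. Nos2 (1.15) and Vcam1 (0.87) still passed (limma adjusted p = 0.0189 and 0.0103), as did 40.1% of all tested features, 113 higher (19.6%) and 118 lower. Egr1, Ptgs2, Socs3, Tnfaip2 and Pik3cd did not pass, and Tnfrsf9 stood at -0.10.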

How the data were processed

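RNA of mouse colon was extracted with TRIzol and made into libraries from 1 µg of it with the NEBNext Ultra kit, per the labels' protocols. The submitters' processing notes name the build mm10 and, with no versions, fastp, FastQC and bcl2fastq. Which aligner and counter were used, whether strand was, and how features were selected is not stated in the sources used here. Deposited files give FPKM, per the file headers, to 2 decimals. FPKM is not corrected for composition, so a gene that takes many fragments lowers all others.

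Of the 912 features 903 matched GENCODE M21 (GRCm38, the build of mm10), which gave symbols, coordinates (1-based) and exon lengths. Library totals came from genes with exons under 1200 bases: the one that turned FPKM times length into whole fragments (tolerance at most 0.2) for 85.7 to 95.5% of 35 to 67 genes. Fragment counts assume these lengths and were not tested as counts. No 2 libraries of a group had more than 25 values in common.

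Limma (version 3.58.1, R 4.3.3) was fitted to log2(FPKM + 1) over all 12 libraries with 1 mean per group and a trended prior, on features with FPKM of at least 1 in 3 or more libraries, and checked on simulated data. Each feature was fitted on the libraries that list it. As the 8 genes are not listed for BXD_L or BXD_H, their own spread came from the 6 Control and DSS libraries. The named genes are the 8 genes, listed genes of 7 pathway lists with values for up to 4 tested genes per list by smallest adjusted p (others fill a count or were picked with their values known), the feature of most similar pattern to each and marker lists as sums. Members and lists were chosen with earlier results of these data known.

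Alternatives were a pseudocount of 0.1, no filter, a stricter filter, Control and DSS libraries only, centring, a replicate block, leaving out libraries and a prior without a trend.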

Additional observations from a re-analysis of the deposited data

How the results depend on the processing

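On leaving out 1 Control or DSS library in turn, the log2 change of Nos2 was 1.62 to 2.00, of Ptgs2 1.18 to 2.07, of Vcam1 1.39 to 1.64, of Tnfrsf9 (not tested) 0.37 to 0.64, of Tnfaip2 0.80 to 1.12, of Socs3 0.81 to 1.44, of Pik3cd 0.76 to 1.10 and of Egr1 1.36 to 2.50. The number of tested genes past the threshold was 6 to 7, since Ptgs2 (1.24) was lost without DSS replicate 2, and the number of the 8 genes with no overlap between groups was 7 to 8. Of all 576 tested features, 440 to 453 were past the threshold as higher in these fits and 88 to 111 as lower. With no library left out, every DSS library was above every Control library in 77.4% of the 912 listed features. Centring gave 2 genes past the threshold, with Ptgs2 at 0.85, Tnfaip2 at 0.29, Socs3 at 0.55, Pik3cd at 0.27, Egr1 at 1.31 and Tnfrsf9 at -0.10; the shift itself removes 0.65 from each. Tnfrsf9 was 1.64 with a pseudocount of 0.1 and passed with no filter (0.55), where 708 of 912 features passed as higher and 169 as lower. In the other alternatives each of the 7 tested genes stayed past the threshold in the same direction. Over 576 features the deviations of same-numbered libraries had r of -0.05, 0.02 and 0.08, and Control replicate 1 was closest to DSS replicate 2 (0.10). With 3 libraries per group, these values cannot settle whether the replicate numbers of the titles mark a pairing or a shared batch. With the replicate block 7 of the genes passed, with 457 features higher and 113 lower in all, and the block changed no call of a gene. With about 4 to 10 fragments per Control library, the size of the Tnfrsf9 difference is loosely set.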
